A study of Drosophila melanogaster with 21 samples.

Results

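A set of transcripts in Drosophila S2 cells stood near the control level 72 hr after RNA interference (RNAi) against CoVa, most of them slightly below it, and was lowered by 168 hr. Its members were 102 of the 18769 probesets of the array that target fly transcripts, and they were chosen from the measured values themselves. Each value was taken as log2 of the signal plus 32, and the value in GFP RNAi cells was subtracted from that in CoVa RNAi cells for each experiment and time. A probeset was a member where the mean difference of 3 experiments at 168 hr was -1 or lower, each of the 3 was -0.7 or lower, the mean of 2 experiments at 72 hr lay between -0.4 and 0.4, and 3 or more of 20 arrays had a signal of 100 or more. Another 2 probesets that met these terms were left out because their gene symbols began with Cyp, Gst or Ugt. The differences at 72 and 168 hr are therefore given as descriptions with no test. The differences at 48, 96 and 120 hr did not enter the rule, but the signal filter read the arrays of those times too. On the 72 and 168 hr arrays alone 97 members met the filter, and CG34396, Reph, pHCl-2 and probesets 1636630_s_at and 1623162_at met it only with arrays of other times. In 19 members fewer than 3 CoVa RNAi arrays reached 100, so GFP RNAi arrays were needed to keep them, which favours a lower value in CoVa RNAi cells at every time.

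The study transfected S2 cells, a haemocyte-like line of embryonic origin, with interfering RNA by calcium phosphate and followed the cultures on Affymetrix Drosophila Genome 2 arrays. The cells received RNA against CoVa, which encodes subunit Va of cytochrome c oxidase, or RNA against green fluorescent protein (GFP), which the fly genome lacks, so both groups were transfected cells of a single line. Experiment 1 gave CoVa RNAi and GFP RNAi cells at 48 and 168 hr, and experiments 2 and 3 gave both at 72, 96, 120 and 168 hr. CoVa RNAi and GFP RNAi thus had 10 arrays each, and a single 48 hr array of cells without transfection was kept out of every comparison.

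Cytochrome c oxidase passes electrons to oxygen as the last complex of the respiratory chain, and a cell that loses it has to draw on other sources of ATP and to dispose of reducing equivalents by other routes. S2 cells divide continuously in culture and secrete extracellular matrix, immune proteins and chitinase-like growth factors, as haemocytes do. Messenger RNAs of the replication-dependent histones are made and kept mainly during S phase. Whether their signal on these arrays followed the share of cells copying DNA was not tested.

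The transcript of CoVa itself had 2278, 804 and 3841 signal units in CoVa RNAi cells at 168 hr of experiments 1, 2 and 3, against 8413, 8962 and 7060 in GFP RNAi cells. At 48 hr it stood at 8364 in CoVa RNAi cells and 7336 in GFP RNAi cells, so no lowering was seen at that time. Among 12 haemocyte markers, 7 had a mean signal of 100 or more, srp, crq, Nplp2, Pxn, vkg, Col4a1 and eater, whereas Hml, NimC1, Sr-CI, He and gcm lay under 100. The 72 and 96 hr arrays of experiment 3 stood apart from the others in both conditions, with a median log2 value of 8.76 to 8.97 over 9858 probesets that passed the signal filter, against 9.04 to 9.15 on the other CoVa RNAi and GFP RNAi arrays. In total RNA of whole cultures, fewer cells of a kind and less RNA per cell cannot be told apart.

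The rule required the members to be low in each experiment at 168 hr, so nothing is read from the agreement of the experiments at that time. Their median difference was -1.20, -1.42 and -1.30 on the log2 scale in experiments 1, 2 and 3. Single members varied more or less than this, as for probeset 1638308_s_at with -1.47, -2.54 and -0.97 and for Paics with -0.95, -1.06 and -1.05. In 95 members the 3 CoVa RNAi arrays all lay below the 3 GFP RNAi arrays at 168 hr, beside 18.2% of the 9858 filtered probesets, and nothing is read from this count because the rule used these arrays. In 30 members all 3 CoVa RNAi arrays of 168 hr were under a signal of 100, where only a bound on the fold can be given. In the other 72 members the mean signal in CoVa RNAi cells was 2.02-fold to 5.65-fold lower than in GFP RNAi cells, with a median of 2.53-fold.

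**Figure D1:**
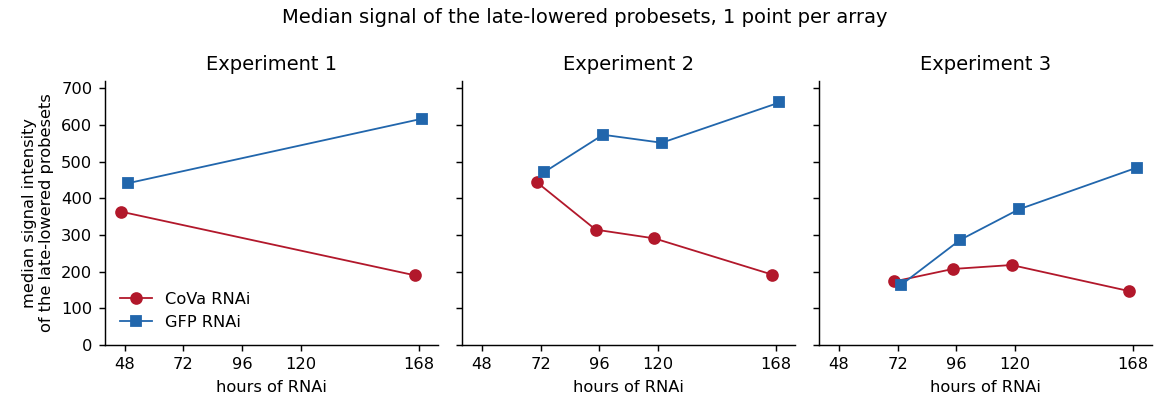
Median signal of the 102 members on each array (y axis, signal units) against hours after RNAi (x axis), in a panel for each experiment, with CoVa RNAi in red and GFP RNAi in blue. In experiment 2 the median was 444, 314, 290.4 and 192 in CoVa RNAi cells at 72, 96, 120 and 168 hr, and 471, 573, 551 and 661 in GFP RNAi cells.

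The median signal of the members separated the conditions step by step. In experiment 3 it was 173, 207, 218 and 147 in CoVa RNAi cells at 72, 96, 120 and 168 hr, against 164, 286, 369.8 and 483 in GFP RNAi cells. In experiment 1 it was 363 at 48 hr and 189.6 at 168 hr in CoVa RNAi cells, against 441 and 617 in GFP RNAi cells. In experiments 1 and 2 the gap thus opened from both sides, with a lower median in CoVa RNAi cells and a higher one in GFP RNAi cells than at the first time, whereas in experiment 3 the median of CoVa RNAi cells stayed between 147 and 218 and that of GFP RNAi cells climbed.

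At 48 hr, with a single pair of arrays and no replicate, 84 of the 102 members already had a lower value in CoVa RNAi cells, beside 50.3% of the filtered probesets, and their median difference was -0.25 against -0.0012 over those probesets. At 72 hr, within the limits of the rule, 76.5% and 73.5% of the members were below 0 in experiments 2 and 3, beside 52.7% and 38.4% of the filtered probesets. The members' median was -0.17 and -0.19, beside -0.010 and 0.059 over those probesets, so many members leaned low by then. At 96 hr the median difference of the members was -0.66 in experiment 2 and -0.45 in experiment 3. At 120 hr it was -0.81 and -0.77. The mean of the 2 experiments was below 0 in all 102 members at 96 hr, beside 39.9% of the filtered probesets, and in all 102 at 120 hr, beside 45.1%. Both experiments reached -0.7 or lower in 11 members at 96 hr, beside 0.487% of the filtered probesets, and in 46 members at 120 hr, beside 0.943%. In 91 members all 4 pairs of these times were below 0, beside 15.6%, and in 41 all 4 CoVa RNAi arrays lay below all 4 GFP RNAi arrays, beside 4.11%. The median difference was nearer 0 at 96 hr than at 120 hr, and no member passed limma's test of the change between these times.

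**Figure D2:**
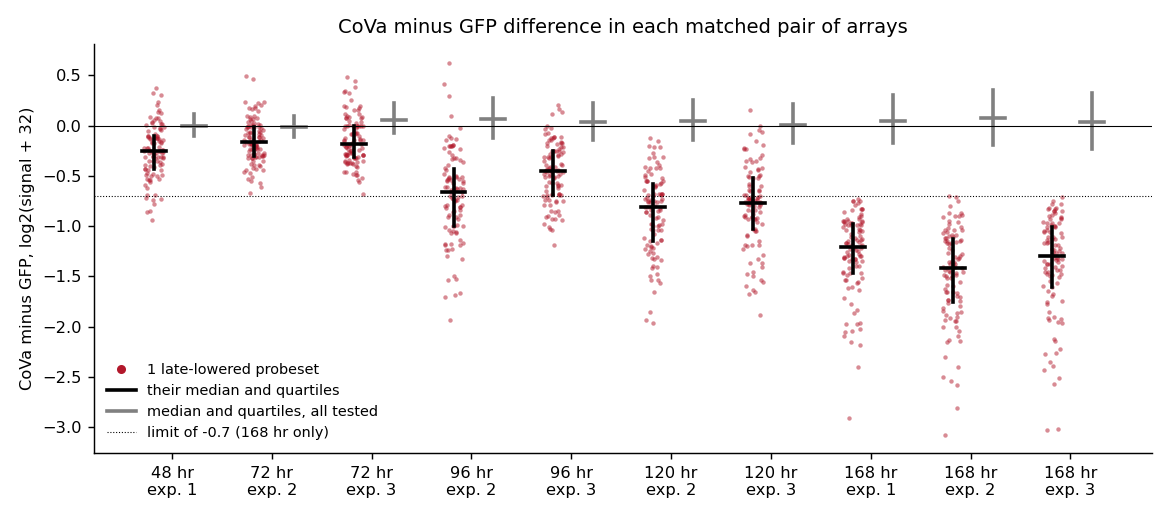
Difference of each member between CoVa RNAi and GFP RNAi cells (y axis, log2 scale) in each matched pair of arrays (x axis, experiment and hours), with medians and quartiles for the 102 members and for the 9858 filtered probesets, and a dotted line at -0.7. The members' median was -0.25 at 48 hr and reached -1.20 to -1.42 at 168 hr, while that of all filtered probesets stayed near 0.

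The differences at 96 and 120 hr were tested by limma's moderated test over 9858 probesets with Benjamini-Hochberg adjustment. At 96 hr 2 members passed an adjusted p of 0.05, Paics and CG11961, both lower in CoVa RNAi cells, beside 0.122% of all probesets tested. At 120 hr 17 members passed, all lower, beside 0.73%. For the mean of 96 and 120 hr 24 members passed, all lower, beside 1.61%. Of these 24, 23 met the signal filter on the 72 and 168 hr arrays alone and 22 had 3 or more CoVa RNAi arrays at 100. No member was called higher at 96 hr, at 120 hr or in their mean, whereas 1.39%, 2.32% and 5.48% of all probesets were. Arrays of the same experiment and time deviated together from their group means. With the matched pair as a block, 30 members passed at 96 hr, 70 at 120 hr and 86 in the mean. The shares of all probesets were 1.19%, 5.75% and 8.76%. Of the 86, 72 had 3 or more CoVa RNAi arrays at 100, and the other 14 needed GFP RNAi arrays to be kept. With the experiment as a block 15, 44 and 56 passed, beside 0.751%, 4.2% and 5.91%. Only experiments 2 and 3 were sampled at these times, so the mean of 96 and 120 hr rests on 4 pairs of arrays. The p-values of the unblocked fit measure the spread of arrays around the mean of their condition and time, pooled over 72, 96, 120 and 168 hr. Without experiment 2 no member passed in the mean of 96 and 120 hr and 0 of 9858 probesets did, with 39 members and 927 probesets at an unadjusted p under 0.05, and without experiment 3 the number was 47, beside 2.01%.

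The spread in that fit drew on the 72 and 168 hr arrays that had chosen the members. In a fit to the 96 and 120 hr arrays alone, 21 members passed in the mean of the 2 times, all lower, beside 0.568% of all probesets. Of the 24 members, 18 passed in this fit too, and Zip71B (adjusted p = 0.0772), CG9119 (0.0693), CG9752 (0.0518), CG7149 (0.0951), axo (0.0840) and probeset 1623162_at (0.103) did not. In limma fits to the arrays of 96 hr or of 120 hr alone, 0 of 9858 probesets passed, and an unadjusted p under 0.05 was seen in 21 members and 435 probesets at 96 hr and in 50 members and 865 probesets at 120 hr.

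**Figure D3:**
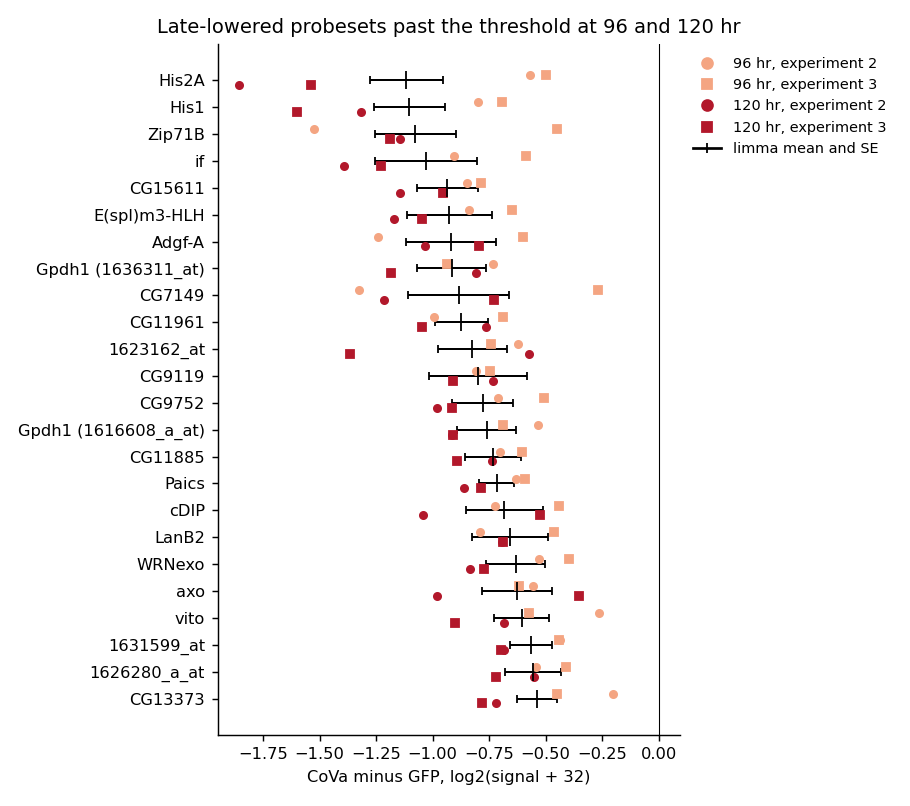
The 24 members past the limma threshold in the mean of 96 and 120 hr, with the fitted difference between CoVa RNAi and GFP RNAi cells and its SE (x axis, log2 scale) and the 4 single pairs of arrays as points. All 24 lay below 0, between -1.12 for His2A and -0.54 for CG13373.

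Histones gave 3 of the members, and 2 of these passed the test over 96 and 120 hr. Their probesets were named from the study's own gene list, and that of His2A, a core histone of the nucleosome, is annotated to 20 gene copies that cannot be told apart. His2A had 542, 509 and 458 signal units in CoVa RNAi cells at 168 hr of experiments 1, 2 and 3, against 2527, 3192 and 2604 in GFP RNAi cells, a mean difference of -2.39 ± 0.21 (SD, n = 3). In experiments 2 and 3 it had 2396 and 1746 in CoVa RNAi cells at 72 hr, against 2275 and 1569 in GFP RNAi cells. The 2 conditions did not differ by more than the experiments did at 72 hr, and by 168 hr every CoVa RNAi array was far below every GFP RNAi array. At 96 hr His2A had 1868 and 1416 in CoVa RNAi cells against 2787 and 2011 in GFP RNAi cells, and at 120 hr 709.6 and 816 in CoVa RNAi cells against 2657 and 2432 in GFP RNAi cells. At these 4 pairs no CoVa RNAi array reached a GFP RNAi array. The fitted difference in limma was -1.12 (SE 0.16, adjusted p = 0.00123) for the mean of 96 and 120 hr and -1.70 (adjusted p = 0.00194) at 120 hr.

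His1, the linker histone, was a member through 2 probesets. The brighter had 1584, 1457 and 968 in CoVa RNAi cells at 168 hr, against 4649, 4653 and 4638 in GFP RNAi cells. It had 2482 and 2214 in CoVa RNAi cells at 96 hr and 1404 and 1245 at 120 hr, against 4347 and 3597 and then 3541 and 3833 in GFP RNAi cells. All of these CoVa RNAi arrays lay below all of the GFP RNAi arrays, and limma gave a difference of -1.10 (SE 0.16, adjusted p = 0.00123) for the mean of both times. The dimmer had 129.8, 144 and 79.5 in CoVa RNAi cells at 168 hr against 704, 836 and 459 in GFP RNAi cells, a ratio of mean signals of 5.65, the highest of the 72 members for which a fold was taken. Its difference over 96 and 120 hr was -0.90 and missed the limma threshold (adjusted p = 0.0551), whereas it passed with a block on the experiment (adjusted p = 7.37e-04) or the matched pair (adjusted p = 0.00125).

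Other histone probesets on the array had smaller differences, none of them past the threshold. The 2 probesets of His4, another core histone, had differences of -0.24 and -0.22 at 168 hr (limma, adjusted p = 0.360 and 0.187). His2Av, a replication-independent variant, had -0.44 at 168 hr (adjusted p = 0.0684) and -0.070 over 96 and 120 hr (adjusted p = 0.950). The brighter His4 probeset had 7916, 8509 and 7990.0 units in CoVa RNAi cells at 168 hr and 9742, 10000.5 and 8687 in GFP RNAi cells. Of 10 listed histone genes, 2 were measured by a probeset annotated to a single gene, His2Av and BigH1, neither of them a member. In limma 0 of the 2 passed over 96 and 120 hr, where none had an unadjusted p under 0.05. At 168 hr 0 passed without a block, 1 had an unadjusted p under 0.05 and was lower with either block, and their median was -0.18. Each of the 2 His4 probesets is annotated to 19 gene copies, and the difference between His4 and His2A was not tested.

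No member was on the chosen lists of DNA replication, mitosis or histone mRNA processing genes, but these lists are not complete. The members Cap-D2, a condensin gene, and Nnf1a, a kinetochore gene, have roles in mitosis and were not listed. Over 96 and 120 hr Cap-D2 had a limma difference of -0.33 (adjusted p = 0.353) and Nnf1a had -0.55 (adjusted p = 0.195). Both passed with the matched pair as a block (adjusted p = 0.0251 and 0.00321). Of 25 measured DNA replication genes, 21 were lower and 0 higher at 168 hr in limma, with a median difference of -0.63, beside 7.44% lower, 9.14% higher and a median of 0.060 over all probesets tested. Mcm3, part of the replicative helicase, was lower by this test at 168 hr with a difference of -0.87 (adjusted p = 1.33e-04). Over 96 and 120 hr 1 of the 25 passed, Mcm2 at -0.32 (adjusted p = 0.0443), 7 passed with the experiment as a block and 9 with the matched pair. Of 22 mitosis and kinesin genes 13 were lower at 168 hr, with a median of -0.60, and of 10 histone mRNA processing and chromatin assembly genes 4 were lower, with a median of -0.48. Slbp, which binds the stem-loop that ends histone mRNAs, fell to a mean of 1982 in CoVa RNAi cells at 168 hr, against 3604 in GFP RNAi cells, with a limma difference of -0.85 (adjusted p = 3.42e-04), and it was also lower over 96 and 120 hr (-0.40, adjusted p = 0.0280). Without experiment 2, 0 of 9858 probesets passed at 168 hr, those of these 3 lists included.

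**Figure D4:**
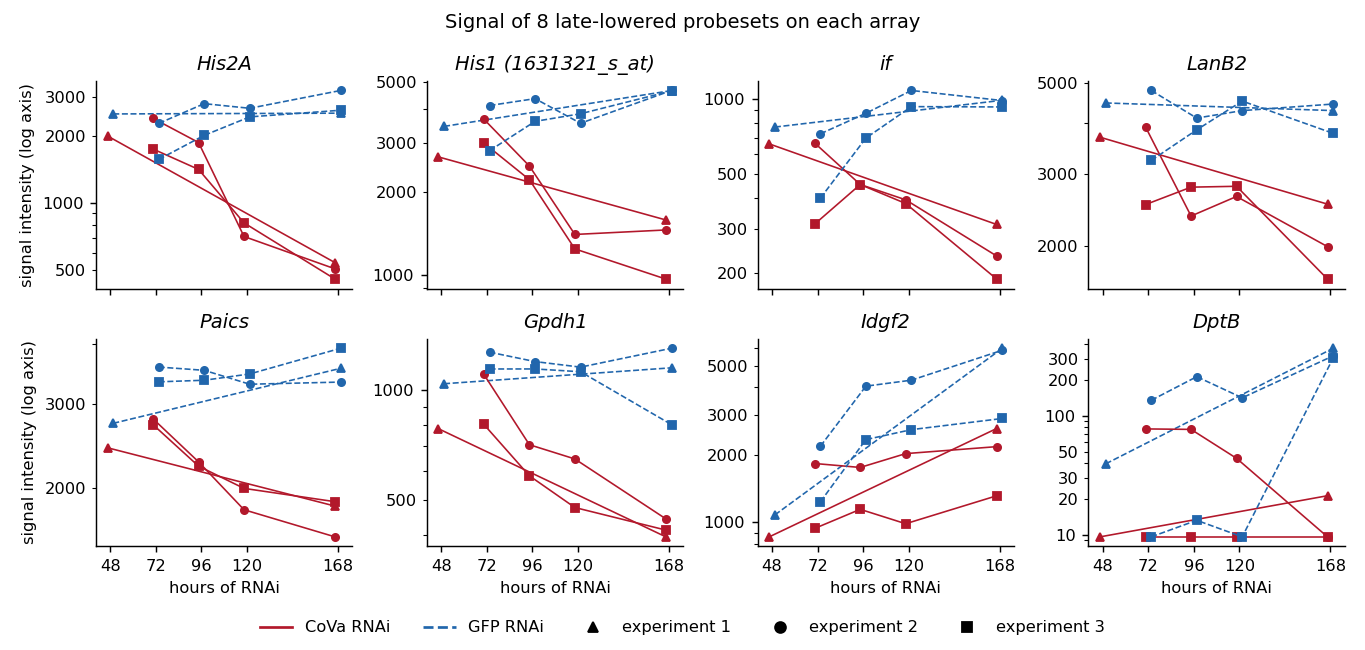
Signal of 8 member probesets on every CoVa RNAi (red) and GFP RNAi (blue) array (y axis, signal units, log scale) against hours after RNAi (x axis), with the experiments marked by symbol. His2A at 168 hr had 458 to 542 in CoVa RNAi cells and 2527 to 3192 in GFP RNAi cells, and Idgf2 had 1315 to 2623 in CoVa RNAi cells and 2907 to 5974 in GFP RNAi cells.

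The members also included genes of integrins and of the extracellular matrix. The gene if, which encodes the αPS2 integrin subunit, had 313, 233 and 188 in CoVa RNAi cells at 168 hr, against 989, 987 and 929.9 in GFP RNAi cells. At 96 hr it had 453 and 453 in CoVa RNAi cells against 877 and 697 in GFP RNAi cells, and at 120 hr 393 and 379.7 in CoVa RNAi cells against 1084 and 933 in GFP RNAi cells. Levels in CoVa RNAi cells were below those in GFP RNAi cells on all of these arrays, with a limma difference of -1.03 (SE 0.22, adjusted p = 0.0162) over 96 and 120 hr. Between the first time and 168 hr the mean change of if was -1.02 on the log2 scale in CoVa RNAi cells and 0.64 in GFP RNAi cells.

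The αPS1 subunit gene mew was a member through both of its probesets but did not pass the test over 96 and 120 hr. Probeset 1640547_at had 921 and 576 in CoVa RNAi cells at 96 hr and 868 and 553 at 120 hr, against 1054 and 794 and then 1095 and 924 in GFP RNAi cells. It had 380.5, 643 and 233 in CoVa RNAi cells at 168 hr, against 782, 1069 and 769.6 in GFP RNAi cells. The conditions overlapped across experiments at 96 hr and not at 120 or 168 hr, and the difference over 96 and 120 hr was -0.42 (limma, adjusted p = 0.680). The second mew probeset had -0.38 (adjusted p = 0.827).

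Of 16 measured adhesion and integrin genes, 2 were lower and 2 higher over 96 and 120 hr, with a median of 0.039 beside 0.041 over all probesets tested. The lower ones were if and scb, an αPS3 subunit gene with a difference of -0.74 (adjusted p = 0.00105). The higher ones were ItgaPS4 at 1.83 (adjusted p = 0.0322) and Itgbn at 0.72 (adjusted p = 0.0351), and mys, the βPS subunit gene, had 0.035 (adjusted p = 0.990). Neither ItgaPS4 nor Itgbn was called in the fit to the 96 and 120 hr arrays alone or without experiment 1. ItgaPS4 is also 1 of 4 lamellocyte markers, whose summed signal was 677 to 1241 in CoVa RNAi cells at 168 hr against 243 to 274 in GFP RNAi cells. Over all times ItgaPS4 had a mean of 222 in CoVa RNAi cells and 29.1 in GFP RNAi cells, and PPO3 had 355 in CoVa RNAi cells and 195 in GFP RNAi cells. The other markers, atilla and mspo, had a mean of 19.4 and 37.0 in CoVa RNAi cells and 27.9 and 27.0 in GFP RNAi cells, and the part of such cells in the integrin values was not tested.

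LanB2, the laminin γ chain, had 2531, 1992 and 1659.6 in CoVa RNAi cells at 168 hr, against 4287, 4449 and 3771 in GFP RNAi cells. At 96 hr it had 2367 and 2785 in CoVa RNAi cells against 4110.1 and 3846 in GFP RNAi cells, and at 120 hr 2643 and 2799 in CoVa RNAi cells against 4287 and 4523 in GFP RNAi cells. The conditions did not overlap at 96, 120 or 168 hr, and limma gave -0.66 (SE 0.17, adjusted p = 0.0362) over 96 and 120 hr. LanB1, the β chain, fell likewise over 96 and 120 hr (-0.57, adjusted p = 0.0102) although it was no member, whereas LanA, the α chain, had -0.19 (adjusted p = 0.668).

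Of 15 measured matrix genes, 4 were lower and 0 higher over 96 and 120 hr, with a median of -0.57 beside 0.041 over all probesets tested, and 7 were lower with the matched pair as a block, 1 with arrays scaled to a common median and 0 without experiment 2, where 0 of 9858 probesets passed. Besides both laminin chains these were Col4a1, a type IV collagen chain (-0.87, adjusted p = 0.00258), and the integrin ligand gene Tig (-0.75, adjusted p = 0.00333). The other type IV collagen chain, vkg, had 0.18 (adjusted p = 0.631). Col4a1 had a difference of -1.78 at 168 hr and missed membership by its 72 hr difference of -0.402.

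Pxn, the matrix peroxidase peroxidasin and a haemocyte marker, had 991, 418 and 50.4 in CoVa RNAi cells at 168 hr of experiments 1, 2 and 3, against 2253, 1955 and 267 in GFP RNAi cells. The conditions overlapped across experiments because experiment 3 had low levels in both. At 96 hr of experiment 2 Pxn was higher in CoVa RNAi cells, 1716 against 1282 in GFP RNAi cells, and in experiment 3 it was lower, 212 in CoVa RNAi cells against 525 in GFP RNAi cells, so its mean difference of -0.73 over 96 and 120 hr had an adjusted p of 0.920 in limma and was 0.070 without experiment 3. The summed signal of the 12 haemocyte markers was 5188 to 8254 in CoVa RNAi cells at 168 hr and 5765 to 12061 in GFP RNAi cells. Mmp2, a matrix metalloproteinase, had 135, 155 and 241 in CoVa RNAi cells at 168 hr against 294, 388 and 555 in GFP RNAi cells, and its difference of -0.60 over 96 and 120 hr had an adjusted p of 0.563 in the unblocked limma fit, 0.0482 with the matched pair as a block and 0.0318 without experiment 3. The secreted serine protease gene teq had 1978, 1662 and 442 in CoVa RNAi cells at 168 hr and 4769, 5348 and 2236 in GFP RNAi cells, with -0.91 over 96 and 120 hr (limma adjusted p = 0.606, or 0.0173 with the matched pair as a block).

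Among enzymes of metabolism, Paics had the smallest adjusted p of all members at 96 hr and in the mean of 96 and 120 hr without a block, whereas His2A had it at 120 hr and Idgf2 in that mean with either block. Paics encodes an enzyme of purine synthesis, and it had 1833, 1581 and 1873 in CoVa RNAi cells at 168 hr against 3561, 3333 and 3923 in GFP RNAi cells. At 96 hr it had 2269 and 2222 in CoVa RNAi cells against 3527 and 3362 in GFP RNAi cells, and at 120 hr 1801 and 1997 in CoVa RNAi cells against 3298 and 3466 in GFP RNAi cells. The experiments were close to each other and the conditions did not overlap, with a limma difference of -0.61 at 96 hr (adjusted p = 0.0176), -0.82 at 120 hr (adjusted p = 0.00211) and -0.72 for their mean (SE 0.08, adjusted p = 2.06e-04). Of 18 measured nucleotide synthesis genes it was the only one lower over 96 and 120 hr, and Gart, of the same purine route, was higher (0.41, adjusted p = 0.0193). Gart did not pass in the fit to those arrays alone, with quantile normalization or with arrays scaled to a common median.

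Gpdh1, the cytosolic glycerol-3-phosphate dehydrogenase, passes electrons between cytosolic NADH and glycerol phosphate. The member probeset with the deeper difference had 395, 443 and 412 in CoVa RNAi cells at 168 hr, against 1149.6, 1301 and 803 in GFP RNAi cells, and at 120 hr 646 and 476 in CoVa RNAi cells against 1155 and 1121 in GFP RNAi cells. Every CoVa RNAi array of 96, 120 and 168 hr lay below every GFP RNAi array of the same time, and the difference over 96 and 120 hr was -0.91 (limma, SE 0.15, adjusted p = 0.00327). The second member probeset had -0.76 (SE 0.13, adjusted p = 0.00355), and 2 further Gpdh1 probesets that were no members had -0.64 and -0.56 at 168 hr.

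Adgf-A, a secreted adenosine deaminase, had 1642, 1314 and 2212 in CoVa RNAi cells at 168 hr against 3198, 2832 and 4486 in GFP RNAi cells. Its difference was -0.92 over 96 and 120 hr (limma, SE 0.20, adjusted p = 0.0157) beside -1.02 ± 0.07 at 168 hr (SD, n = 3). At 96 hr it had 1116 and 1570.0 in CoVa RNAi cells and 2685 and 2398 in GFP RNAi cells.

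Idgf2, a chitinase-like secreted growth factor, was higher at 168 hr than at the first time in both conditions, by a mean of 0.76 on the log2 scale in CoVa RNAi cells and 1.68 in GFP RNAi cells. It had 2623, 2177 and 1315 in CoVa RNAi cells at 168 hr, against 5974, 5855 and 2907 in GFP RNAi cells. At 72 hr it had 1831 and 941 in CoVa RNAi cells against 2186 and 1237 in GFP RNAi cells. At 48 hr it had 863 in CoVa RNAi cells and 1081 in GFP RNAi cells. Within each experiment the CoVa RNAi array lay below the GFP RNAi array at every time, and experiment 3 was lower than experiment 2 in both conditions. The unblocked limma fit gave -1.16 over 96 and 120 hr with an adjusted p of 0.0943, against 1.35e-05 with the experiment as a block, 1.29e-04 with the matched pair and 0.0220 without experiment 3. Of the other measured family members, Idgf1 was lower over 96 and 120 hr (-1.04, adjusted p = 0.00990), whereas Idgf3 at -0.36 (adjusted p = 0.384) and Idgf6 at -0.58 (adjusted p = 0.193) did not pass.

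LManII, a lysosomal α-mannosidase, likewise was higher at the last time than at the first in both conditions, by 0.61 on the log2 scale in CoVa RNAi cells and 1.55 in GFP RNAi cells. It had 929, 447 and 162 in CoVa RNAi cells at 168 hr and 1797, 1217 and 358 in GFP RNAi cells, and the conditions overlapped across experiments. Its difference of -0.62 over 96 and 120 hr had a limma adjusted p of 0.879 without a block. The adjusted p was 0.0160 with the experiment and 0.0103 with the matched pair as a block. Npc2b, a sterol-binding protein of the Niemann-Pick type C family, had 1606, 994 and 2827 in CoVa RNAi cells at 168 hr and 3987, 4095 and 5181 in GFP RNAi cells. Its difference of -0.81 over 96 and 120 hr had an adjusted p of 0.0984 in limma and 0.0121 with the matched pair as a block. Regucalcin was similar, with 2652, 1763 and 1280.4 at 168 hr in CoVa RNAi cells against 5849, 5640.2 and 3572 in GFP RNAi cells, and with -0.93 over 96 and 120 hr (adjusted p = 0.0997, or 0.00266 with that block).

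The members included immune genes of different kinds, DptB, edin and GNBP3. At 48 hr edin had the lowest difference of all members, -0.94, with 41.4 in CoVa RNAi cells and 109 in GFP RNAi cells, and DptB had -0.78. DptB, a diptericin made under the Imd pathway, had the lowest difference of all members at 168 hr, -3.004 ± 0.08 (SD, n = 3). It had 21.3, 9.60 and 9.60 in CoVa RNAi cells at 168 hr against 369, 319 and 306 in GFP RNAi cells, at least 3.31-fold lower when taken against a signal of 100. The value 9.60 is the lowest in the data. No CoVa RNAi array of DptB reached 100 and 6 GFP RNAi arrays did, so the signal filter favoured a lower value in CoVa RNAi cells. In experiment 3 DptB was at 9.60 in both conditions at 72 and 120 hr, so no further fall could show there. Its mean change by 168 hr was -0.35 in CoVa RNAi cells and 2.19 in GFP RNAi cells, so on this mean the gap came largely from a higher level in the controls. In experiment 2 its change was -1.40 in CoVa RNAi cells and 1.07 in GFP RNAi cells. Over 96 and 120 hr its difference was -0.62 (limma, adjusted p = 0.800, or 0.0805 with the matched pair as a block), and without experiment 3 it was -1.18 (adjusted p = 0.0283).

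The infection-induced gene edin had 60.3, 55.4 and 93.7 in CoVa RNAi cells at 168 hr against 296, 358 and 574 in GFP RNAi cells. This was at least 4.09-fold lower against a signal of 100. Only 2 CoVa RNAi arrays of edin reached 100, so GFP RNAi arrays were needed to keep it. On the mean edin too changed mainly in the controls, by 0.064 in CoVa RNAi cells and 1.66 in GFP RNAi cells. In experiments 1, 2 and 3 its change was 0.33, -0.92 and 0.79 in CoVa RNAi cells. In GFP RNAi cells it was 1.22, 1.05 and 2.70. Its difference of -0.83 over 96 and 120 hr had an adjusted p of 0.349 in limma, 8.98e-04 with the matched pair as a block and 0.0341 without experiment 3. GNBP3, which recognises fungal glucans upstream of Toll, had 743, 810.2 and 270.4 in CoVa RNAi cells at 168 hr and 1548, 1677 and 1136 in GFP RNAi cells. At 96 hr of experiment 2 it was higher in CoVa RNAi cells, 2009 against 1637 in GFP RNAi cells, its difference over 96 and 120 hr was -0.26 (adjusted p = 0.941), and without experiment 3 it was 0.044.

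Of 22 measured Toll, Imd and antimicrobial genes, 0 passed limma in either direction over 96 and 120 hr, where 4 had an unadjusted p under 0.05, with a median of -0.0012. At 168 hr, apart from members, key was lower and 2 were higher, Drs at 1.201 (limma, adjusted p = 0.0147) and the peptidoglycan receptor gene PGRP-LE at 1.25 (adjusted p = 3.48e-04). Drosomycin, the product of Drs, is a Toll-dependent antifungal peptide. With the experiment as a block 4 of the 22 were lower and 4 higher at 168 hr, beside 1443 lower and 1843 higher of 9858 probesets. With the matched pair 6 were lower and 5 higher, beside 1847 and 2398 of 9858. These are counts over a list that holds the member DptB, whose 168 hr values the rule used, and nothing particular to the list is read from them. Without experiment 2, 0 of 9858 probesets passed at 168 hr.

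E(spl)m3-HLH, a basic helix-loop-helix repressor that responds to Notch, had 559.9, 287 and 578 in CoVa RNAi cells at 168 hr against 1202, 1166 and 1530.5 in GFP RNAi cells. At 96 hr it had 734 and 901 in CoVa RNAi cells against 1339 and 1432 in GFP RNAi cells, and at 120 hr 589.9 and 737 in CoVa RNAi cells against 1368 and 1556 in GFP RNAi cells. Its level in CoVa RNAi cells went down at each time in both experiments while the mean change in GFP RNAi cells was 0.022, and limma gave -0.93 (SE 0.19, adjusted p = 0.0109) over 96 and 120 hr. Hrb87F, an hnRNP that binds nuclear RNA, was among the most abundant members, with 2858, 2407 and 1573 in CoVa RNAi cells at 168 hr and 5396, 5412 and 4654 in GFP RNAi cells. Its difference of -0.65 over 96 and 120 hr had an adjusted p of 0.218 in limma and 0.00302 with the matched pair as a block, and it was 0.0421 without experiment 3.

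Zip71B, of the ZIP family of metal transporters, was at 36.7, 29.8 and 20.4 in CoVa RNAi cells at 168 hr against 252, 206 and 236 in GFP RNAi cells, at least 2.31-fold lower against a signal of 100. It was dim in both conditions at 72 hr, with a mean of 61.3 in CoVa RNAi cells and 62.8 in GFP RNAi cells. Over 96 and 120 hr its difference was -1.08 (limma, SE 0.18, adjusted p = 0.00302). No CoVa RNAi array of Zip71B reached 100 and 6 GFP RNAi arrays did, so the signal filter favoured this lower value. The uncharacterised CG5002 was at 52.3, 24.1 and 72.2 in CoVa RNAi cells at 168 hr against 328, 285 and 560.4 in GFP RNAi cells, at least 3.91-fold lower. At 120 hr its 59.8 and 233 in CoVa RNAi cells stood against 227 and 471 in GFP RNAi cells, so each pair was apart but the conditions overlapped across experiments, and -1.08 over 96 and 120 hr had a limma adjusted p of 0.135, 0.00118 with the matched pair as a block and 0.0366 without experiment 3.

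The other members that passed over 96 and 120 hr included 2 little-known genes with large differences, CG15611 at -0.93 (SE 0.13, adjusted p = 0.00118) and CG11961 at -0.87 (SE 0.12, adjusted p = 8.08e-04). CG11961 passed at 96 hr as well, at -0.84 (adjusted p = 0.0273), where it had 564 and 758 in CoVa RNAi cells against 1154 and 1241 in GFP RNAi cells. CG7149 passed at -0.88 (adjusted p = 0.0346) and probeset 1623162_at at -0.82 (adjusted p = 0.00603). Only 1 CoVa RNAi array and 2 GFP RNAi arrays of 1623162_at reached 100, so the signal filter favoured its lower value. The remaining 10, named only because they passed, were CG9119, CG9752, CG11885, WRNexo, a homologue of the Werner exonuclease, axo, cDIP, vito, a nucleolar protein gene, CG13373 and probesets 1631599_at and 1626280_a_at, with differences of -0.80 to -0.54. CG13373 had the least deep of these, at -0.54 (adjusted p = 0.00269).

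The 5 members with the highest difference over 96 and 120 hr were GNBP3, otk, a receptor tyrosine kinase-like gene, probeset 1636306_at, zormin, a titin-like protein of the sarcomere, and CG33307, between -0.32 and -0.26. Single pairs went further, as for GNBP3 at 120 hr of experiment 3 with 626 in CoVa RNAi cells and 1050.2 in GFP RNAi cells, a difference of -0.72, and for 1636306_at at 96 hr of experiment 3 with 79.6 in CoVa RNAi cells and 149 in GFP RNAi cells, a difference of -0.70. Of these 5 CG33307 alone passed with a block (adjusted p = 0.0198 with the experiment, 0.0225 with the matched pair, and 0.563 in limma without a block). zormin was at 67.1, 65.2 and 22.4 in CoVa RNAi cells at 168 hr against 164, 156 and 155 in GFP RNAi cells. This was at least 1.58-fold lower against a signal of 100. Other zormin probesets that passed the signal filter had differences of 0.47 and -0.15 at 168 hr. otk had 455, 442 and 82.7 in CoVa RNAi cells and 866, 903 and 403 in GFP RNAi cells, and its conditions overlapped across experiments.

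Further members sampled by brightness or family had the same direction without passing the unblocked test. alpha-Est9, of the carboxylesterase cluster, had 246, 156 and 267 in CoVa RNAi cells at 168 hr against 702, 536 and 549 in GFP RNAi cells. CG31689, of the ABC transporter list, had 695, 479 and 343 in CoVa RNAi cells against 1210.2, 1020.5 and 1009 in GFP RNAi cells. Both had all CoVa RNAi arrays below all GFP RNAi arrays at 168 hr, and over 96 and 120 hr they passed with the matched pair as a block (adjusted p = 0.00456 and 0.00424), while CG31689 also passed on the arrays of those times alone (adjusted p = 0.0203) and with quantile normalization, a filter of 200 or without experiment 1. The brightest member, probeset 1628814_s_at with no gene given, had 4835, 3531 and 4351 at 168 hr in CoVa RNAi cells against 9763, 7968 and 8576 in GFP RNAi cells. ImpE3, an ecdysone-inducible gene, was at 72.8, 86.3 and 76.4 in CoVa RNAi cells against 183, 216 and 315 in GFP RNAi cells, at least 2.38-fold lower.

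Probesets with no gene name were among the most lowered at 168 hr. Probeset 1637055_s_at had 250.1, 259 and 59.1 in CoVa RNAi cells against 1079, 1248 and 711 in GFP RNAi cells, and 1635666_at had 168, 466 and 74.2 in CoVa RNAi cells against 651, 1867 and 381 in GFP RNAi cells. The CoVa RNAi array of experiment 2 exceeded the GFP RNAi array of experiment 3 for 1635666_at, although each pair had a gap of like size. Probesets 1631697_at and 1626867_at had mean differences of -2.13 ± 0.23 and -2.02 ± 0.79 (SD, n = 3). Of the 102 members, 22 had no annotated gene and 4 had several, and the 76 with a single gene stood for 74 genes.

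The members reached their low level by different routes. Taking the change from the first array to 168 hr and averaging over the experiments, 57 members were lower by more than 0.5 in CoVa RNAi cells with GFP RNAi cells within 0.5, and 13 were lower in CoVa RNAi cells and higher by more than 0.5 in GFP RNAi cells. In 27 members CoVa RNAi cells stayed within 0.5 and GFP RNAi cells were higher by more than 0.5. In 3 both stayed within 0.5, and in 2, Idgf2 and LManII, both were higher. His2A was of the first kind, with -1.95 in CoVa RNAi cells and 0.40 in GFP RNAi cells, as were LanB2 (-0.70 and 0.016), E(spl)m3-HLH (-1.13 and 0.022) and the deeper Gpdh1 probeset (-1.03 and -0.10). CG5002 (-1.51 and 0.56) and Zip71B (-0.58 and 1.37) moved apart from both sides, and DptB and edin were by these means of the kind that was higher in GFP RNAi cells. The split by experiment mattered, since the median change in CoVa RNAi cells was -0.54, -1.04 and -0.44 in experiments 1, 2 and 3, and that in GFP RNAi cells was 0.33, 0.23 and 0.71. Experiment 3 started from the arrays that stood apart, and their part in its larger change in GFP RNAi cells was not tested.

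**Figure D5:**
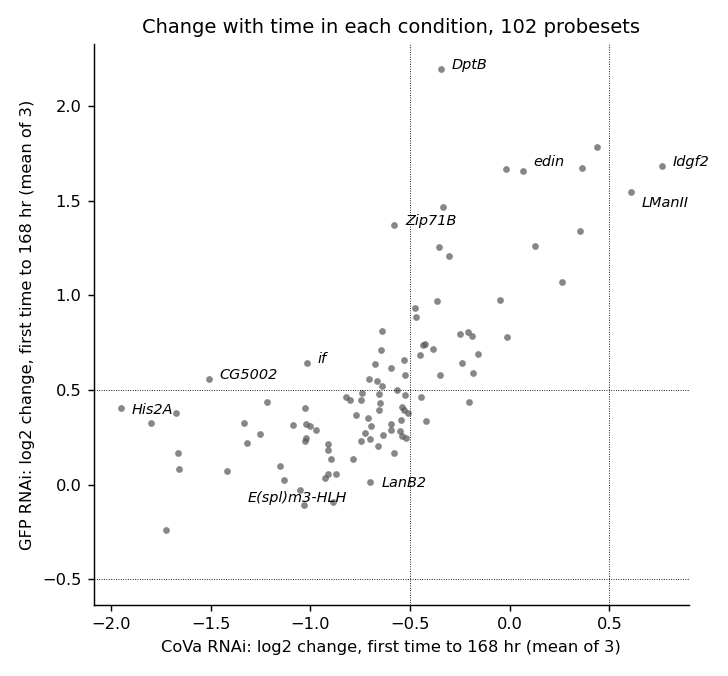
Change from the first array to 168 hr in CoVa RNAi cells (x axis) and in GFP RNAi cells (y axis), both on the log2 scale and averaged over 3 experiments, for the 102 members, with dotted lines at 0.5 and -0.5. On these means the 57 members at the left between the horizontal lines passed the limit of -0.5 in CoVa RNAi cells only. The 27 in the upper middle passed 0.5 in GFP RNAi cells only. Single experiments could differ, as for mam of the latter group, with -1.28 in CoVa RNAi cells and 0.086 in GFP RNAi cells of experiment 2.

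Between 96 and 120 hr the difference deepened in 86 of 102 members, with a median change of -0.22 beside -0.024 over all probesets. No member and none of the 9858 probesets passed limma's test of this change, and 3 members, among 54 probesets in all, had an unadjusted p under 0.05. These were His2A at -1.17, the brighter His1 probeset at -0.71 and CG13373 at -0.42. No member passed within GFP RNAi cells or within CoVa RNAi cells between 96 and 120 hr (0 and 4 members at an unadjusted p under 0.05, among 40 and 357 probesets), so the deepening is a direction and not a call.

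The transcripts lowered at 168 hr by the same thresholds numbered 151, of which 47 were already lower than -0.4 at 72 hr, 0 were above 0.4 and the rest were flat. After the families named above were left out, the early set held 46 probesets. Its median difference was -0.97 at 96 hr and -1.15 at 120 hr, beside -0.60 and -0.79 in the members, and 25 of its 46 probesets passed limma over 96 and 120 hr beside 24 of the 102 members, a difference between the sets that was not tested. With the sign turned, 273 probesets were raised at 168 hr and 184 of these were flat at 72 hr.

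Probesets chosen in 2 experiments had low values in the one left out. Of 127 probesets chosen with experiments 2 and 3, 111 (87.4%) had a difference of -0.7 or lower at 168 hr of experiment 1, beside 3.48% of the filtered probesets. Of 85 chosen without experiment 2, 81 (95.3%) did so in it, beside 5.02%, and of 115 chosen without experiment 3, 91 (79.1%) did so in it, beside 5.02%. The 3 shares come from unlike rules and are not compared with each other, and no support for the pattern is read from them.

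At the threshold itself the members just inside were Adgf-A (-1.02), bbg (-1.01) and probeset 1623162_at (-1.002) at 168 hr, and just outside were CG13690 (-0.996), CG10336 (-0.99) and CG8668 (-0.99). At 72 hr Invadolysin and pxb lay just inside at -0.40, and Had2 (-0.405) and Col4a1 just outside.

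The members' genes had 35 other probesets on the array, of which 18, of 15 genes, passed the signal filter. Their median difference at 168 hr was -0.48, 13 were below 0 and 2 were at -1 or lower, a second probeset of regucalcin at -1.76 and a second of teq at -1.06. At 168 hr the farthest in the other direction was a probeset of Epac at 0.75. The other filtered ones above 0 were of zormin (0.47), AdamTS-A (0.27), SERCA (0.26) and CG44085 (0.011). Probesets of a gene can target different transcript ends, so a member stands for the sequence it measures and not for every transcript of its gene.

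The members were not marked by their level, since the median of their mean signal in GFP RNAi cells was 518, with a range of 71.6 to 7620, beside 500.3 over the filtered probesets. The 76 members with a single gene had a median gene length of 5644 bases, beside 2776 over the filtered probesets with a placed gene. They lay on the X chromosome (12, 15.8%), 2L (11, 14.5%), 2R (19, 25%), 3L (15, 19.7%) and 3R (19, 25%), and none lay on chromosome 4. Of the filtered probesets with a placed gene, 16.8%, 17.8%, 19.8%, 19.8%, 25.2% and 0.57% lay there, and nothing is read from these counts. The 3′ to 5′ signal ratio of the actin control probesets was 1.71 to 2.03 in CoVa RNAi cells at 168 hr and 1.69 to 1.81 in GFP RNAi cells, and that of GAPDH was 1.25 to 1.38 in CoVa RNAi cells and 1.38 to 1.55 in GFP RNAi cells. The part of RNA quality or of gene length in the members' values was not tested.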

How the data were processed

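RNA of S2 cells was hybridized to 21 arrays, 10 of CoVa RNAi, 10 of GFP RNAi and 1 of untransfected cells. The deposited values were signal intensities. The paper names the Affymetrix operating software and dChip, with normalization to the array of median intensity, whereas the labels name MAS5. The range of the values does not settle which of these made them. The table held 18952 probesets, 183 of them array controls that were left out. Replicates were 3 experiments, each array being a separate culture time, and precision is limited by the few arrays at each time. Array medians were 67.5 to 94.4 and 42.7% to 49.0% of probesets reached a signal of 100.

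Values were analysed as log2(signal + 32), so folds of dim probesets are understated. limma 3.58.1 in R 4.3.3 was fitted to a mean for each condition and time on 20 arrays, without a block, over the 9858 probesets with a signal of 100 on 3 or more arrays, and p-values were adjusted by Benjamini-Hochberg. The pairing of arrays by experiment was checked by the correlation of deviations from group means, which was 0.774 to 0.956 at 72, 96 and 120 hr and 0.582 to 0.709 at 168 hr. Fits with the experiment or the matched pair as a block were therefore set beside many of the calls that they changed. For some named members, such as ImpE3 and probeset 1635666_at, which passed over 96 and 120 hr with either block, these calls are not given. Other alternatives were 16 or 64 added before log2, quantile normalization, scaling to a common median, no filter, a filter of 200, eBayes with trend and robust settings, each experiment left out, and the arrays of 96 and 120 hr alone. Scripts were tested on simulated data.

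Gene names came from the platform annotation and RefSeq, by which 13646 probesets had 1 gene, 402 several and 4721 none, and 3 histone members were named from the study's gene list, which was chosen on these samples. Members named in the text were those lowest at 168 hr, brightest in GFP RNAi cells, brightest in each gene list, lowest past the threshold over 96 and 120 hr, highest over those times, or at the threshold, and the remaining members that passed. Cap-D2 and Nnf1a were named besides, as genes of mitosis that the lists left out. The members, the gene lists and the tests were chosen with earlier results of these data known, so no count here is independent support for the pattern. Promoter sequences were not used here.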

Additional observations from a re-analysis of the deposited data

How the results depend on the processing

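All 102 members had a mean difference below 0 at 96 and at 120 hr in the main analysis, and the number called depended on the spread that each fit used. At 96 hr 2 members passed limma, 15 with the experiment as a block and 30 with the matched pair, beside 0.122%, 0.751% and 1.19% of all probesets. When arrays were scaled to a common median, without the filter, or on the arrays of the compared times alone, 0 passed. With an experiment left out 0 to 1 passed, the 1 without experiment 1, beside 0.071%. At 120 hr 17 passed, 44 and 70 with these blocks, 3 with the common median, 9 without the filter and 0 on those arrays alone. The shares of all probesets beside these were 0.73%, 4.2%, 5.75%, 0.122%, 0.144% and 0%. With an experiment left out 0 to 10 passed, the 10 without experiment 1, beside 0.416%. In the mean of both times 24 passed, 56 and 86 with the blocks and 11 with the common median. Of all probesets, 1.61%, 5.91%, 8.76% and 0.449% did so. Of the 86 members, 14 needed GFP RNAi arrays to pass the signal filter. With an experiment left out 25 passed without experiment 1, 0 without 2 and 47 without 3, beside 1.19%, 0% and 2.01%. The fits without experiment 2 or 3 had 2 residual degrees of freedom. The common median moved the median of all probesets at 168 hr to -0.054, beside 0.060, and the calls at 120 hr to 12 lower and 86 higher, beside 72 lower and 229 higher. Among the named members, Pxn (0.070, adjusted p = 0.924) and GNBP3 (0.044, adjusted p = 0.798) turned direction over 96 and 120 hr without experiment 3, with a range of -1.54 to 0.070 and of -0.557 to 0.044 with an experiment left out, and the cause was not tested.

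The rule gave 112 probesets with 16 added before log2 and 84 with 64, 120 with quantile normalization, 152 with the common median, 105 without the filter, 82 with a filter of 200, and 85 to 127 with an experiment left out. These sets shared 91, 75, 91, 101, 102 and 82 probesets with the members, and 72 to 98 with an experiment left out. The matched-pair block gave no value for changes within a condition. Depth is set by 2 experiments at 96 and 120 hr, and signals under 100 allow only bounds.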

Other observations

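The array of untransfected cells at 48 hr, the only one of its kind, had a median signal of 495 over the 102 members, beside 363 in CoVa RNAi cells and 441 in GFP RNAi cells of the same experiment and time. Of the members, 91 reached a signal of 100 on it, beside 84 in CoVa RNAi cells and 88 in GFP RNAi cells.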
